A study of Homo sapiens with 21 samples.

Results

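Galectins are lectins that bind beta-galactosides on glycoproteins, and LGALS3BP is a secreted glycoprotein that galectins bind. Transcripts of 4 galectin genes (LGALS1, LGALS3, LGALS8 and LGALS9) and of LGALS3BP were followed in MM.1S, an established human multiple myeloma cell line grown from peripheral blood. These 5 genes, of 17691 in the deposited table, were taken by name. They were chosen on measured values, LGALS3BP being high in drug-treated cells and LGALS1 low after ARID2 knockdown, so values in those comparisons describe the choice and are given without a test.

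RNA of 21 libraries was sequenced, 3 for each of 7 groups. Untreated cells were set beside cells collected after 24, 48 or 72 h in pomalidomide at 1 µM. Cells given a lentiviral shRNA against ARID2 for 72 h, and cells labelled the same way for Aiolos, were set beside cells labelled control knockdown, for which no hairpin or time is stated in the sources used here. All cells shared the MM.1S background, labelled wild type in the untreated and drug groups. Untreated cells form 1 group with no matching times, so drug exposure and culture time cannot be told apart. The labels do not say whether the 3 libraries of a group came from separate cultures, so p-values measure only the spread between these libraries.

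Pomalidomide binds cereblon, which picks substrates for a ubiquitin ligase, and sends the transcription factors Ikaros and Aiolos to degradation. ARID2 belongs to PBAF, one of the SWI/SNF complexes that move nucleosomes, and Aiolos is encoded by IKZF3. Values are TPM, a length-scaled share of transcripts, so levels can be compared between genes but the sequencing depth behind them is unknown. Fold changes are on the log2(TPM + 1) scale with standard errors (SE) and understate the change of genes at low TPM. A gene was tested where it reached 1 TPM in at least 3 libraries, and it passed at an adjusted p under 0.05 in limma. The TPM of listed genes added up to 951444 in the lowest library and 968652 in the highest.

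The targeted genes were read first. ARID2 averaged 12.2 TPM in the ARID2 knockdown and 25.6 TPM in the control knockdown, a log2 fold change of -1.01 ± 0.07 (SE; adjusted p = 8.13e-11). IKZF3 averaged 130 TPM in the libraries labelled Aiolos knockdown (Aiolos-labelled libraries) and 81.3 TPM in the control knockdown, 0.67 ± 0.05 higher (SE; adjusted p = 1.92e-10). The IKZF3 transcript thus goes against its label, and the protein was not measured here. IKZF3 was also higher in the ARID2 knockdown than in the control, at 120 TPM (0.55 ± 0.05, adjusted p = 5.09e-09). It averaged 96.4 TPM in untreated cells and 115, 123 and 112 TPM at 24, 48 and 72 h of pomalidomide. All 12 plasma cell markers averaged at least 1 TPM in every group.

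Galectins leave the cell without a signal peptide and crosslink galactose-bearing receptors, and several also act inside the cell. Galectin-1 acts as a dimer and is known for killing or silencing activated T cells, galectin-3 has a single lectin domain on a collagen-like tail, and galectins 8 and 9 join different lectin domains in one chain. Branching enzymes and N-acetyllactosamine synthesis make their ligands, while sialic acid caps can block them. LGALS3BP, also called Mac-2 binding protein, carries a scavenger receptor cysteine-rich (SRCR) domain and is known as an interferon-induced gene.

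The genes lie apart in the genome (GENCODE 29 annotation of GRCh38, the build also called hg38). LGALS1 spans chr22:37675608-37679806 on the plus strand, LGALS3 chr14:55124110-55145413 on the plus strand and LGALS8 chr1:236518000-236552981 on the plus strand. LGALS9 spans chr17:27629798-27649560 on the plus strand, and LGALS3BP spans chr17:78971238-78980109 on the minus strand. LGALS8 overlaps HEATR1 and antisense genes on the other strand, and whether counting used strand is not given in the sources used here. LGALS9 has near-identical copies, LGALS9B and LGALS9C, and overlaps AC015688.4 on its own strand, so its values are uncertain.

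Promoters of RefSeq on GRCh38.p14, from 250 bases before to 50 bases after a start, were matched for LGALS3, LGALS3BP, LGALS8 and LGALS9. They were searched on both strands for 4 motifs of factors in interferon, Ikaros and IRF biology. The interferon-stimulated response element, spelled GAAA, any 2 bases, GAAA, was found in the LGALS3BP and LGALS9 windows and in 3.57% of 35116 promoters. The others had no match in the 4 genes' windows: the gamma-activated site, TTC and GAA parted by any 3 bases (7.66% of promoters), the Ikaros core TGGGAA (24.0%) and the Ets-IRF composite, GGAA and GAAA parted by any 2 bases (2.82%), whose letters overlap the interferon element. A match is a description of letters and not a bound site. The 2 stretches with a match are shown because LGALS3BP was high in drug-treated cells and low elsewhere, while LGALS9 was under 1 TPM in every library. Capitals mark the match. The LGALS3BP stretch is chr17:78979924-78980073 on the minus strand and the LGALS9 stretch is chr17:27631039-27631188 on the plus strand, each read 5′ to 3′ on its gene's strand.
LGALS3BP: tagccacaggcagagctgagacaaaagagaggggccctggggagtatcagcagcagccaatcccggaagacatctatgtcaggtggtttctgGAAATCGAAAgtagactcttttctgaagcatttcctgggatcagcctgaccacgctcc
LGALS9: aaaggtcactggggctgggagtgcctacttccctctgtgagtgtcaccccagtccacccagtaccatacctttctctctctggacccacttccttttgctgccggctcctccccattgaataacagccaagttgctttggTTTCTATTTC
In LGALS3BP the match GAAATCGAAA lies from 58 to 49 bases before the RefSeq start. In LGALS9 the element lies on the opposite strand, so that TTTCTATTTC is read here, and it ends on the first transcribed base of RefSeq. Both stretches lie inside the GENCODE spans given above, which begin further upstream.

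LGALS1 made up most of the galectin transcript in every library. Its share of the summed TPM of the 5 genes ran from 79.8% to 95.2% of that sum across libraries. The sum itself ran from 73.5 to 768 TPM. LGALS1 stood between places 136 and 2522 among the 17691 genes when each library was ranked by TPM. LGALS3 and LGALS8 stayed at single to low double digits of TPM, LGALS9 stayed under 1 TPM, and LGALS3BP spanned the widest ratio.

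**Figure D1:**
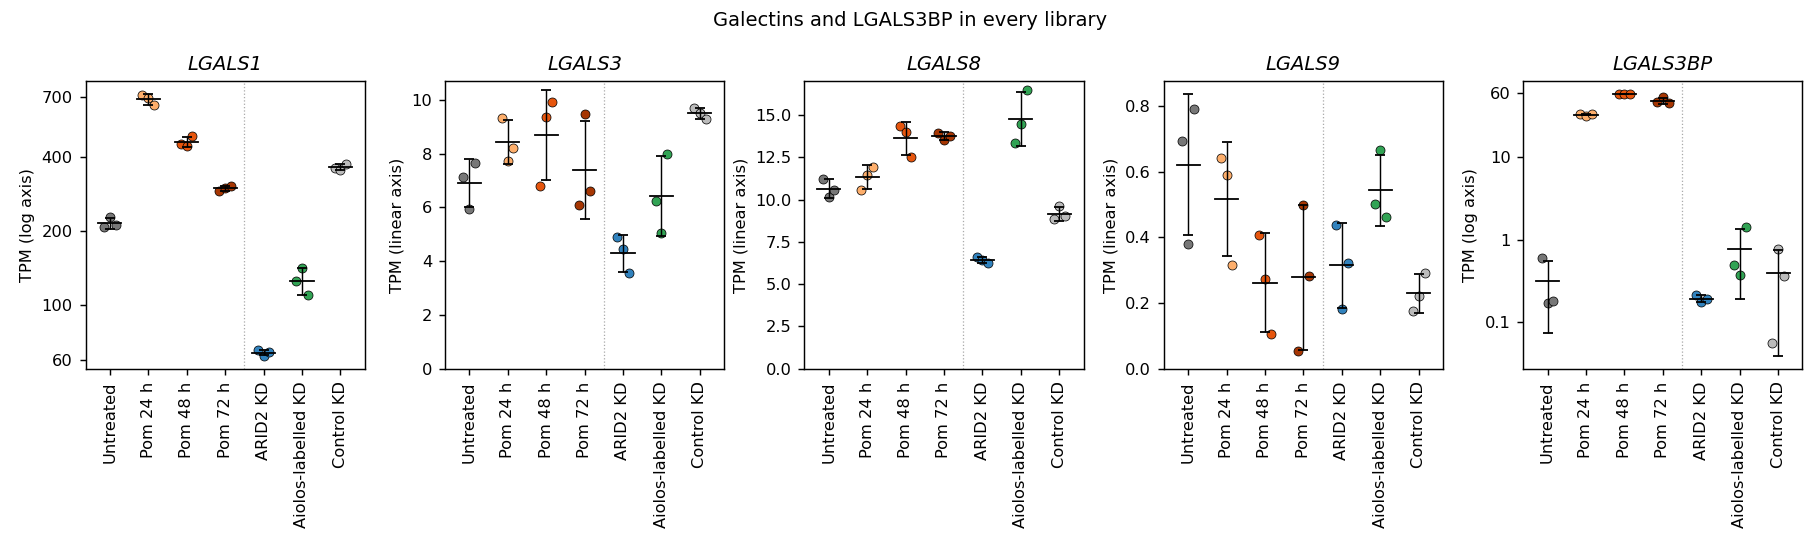
TPM of LGALS1, LGALS3, LGALS8, LGALS9 and LGALS3BP in each library (points) with the group mean and SD (bars, n = 3); the LGALS1 and LGALS3BP axes are logarithmic, and the drug series and the knockdown groups are parted by a dotted line. LGALS3BP is above 31 TPM in all 9 drug libraries and below 2 TPM in all others, and LGALS1 is lowest in the ARID2 knockdown.

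LGALS1, which encodes galectin-1, was 207, 228 and 211 TPM in untreated cells. It was 714, 697 and 649 TPM at 24 h of pomalidomide, 453, 442 and 487 TPM at 48 h, and 291, 300.3 and 304 TPM at 72 h. The untreated libraries lay below all drug libraries, the 24 h libraries lay above all others, and no 2 of these 4 groups overlapped. Over all genes tested, 68.6% did not overlap between 24 h and untreated cells, 79.8% at 48 h and 80.4% at 72 h, with 62% between 48 and 24 h and 54.8% between 72 and 48 h, so separation alone is common here. As a description, its log2 fold change from untreated cells was 1.67 ± 0.06 at 24 h (SE), place 161 from the top of 12559 genes, and 1.09 ± 0.06 at 48 h. At 72 h it was 0.47 ± 0.06, which is 0.31 above the median of all genes at that time. That median was 0.15 as deposited and 0.01 with median-of-ratios scaling, so changes from untreated cells at 72 h are given also relative to it. Changes of single other genes at 72 h are as deposited.

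The decline of LGALS1 within the drug series was not part of the choice and could be tested. Between 24 and 48 h it fell by 0.58 (95% interval -0.71 to -0.44, adjusted p = 1.61e-07), and between 48 and 72 h it fell by 0.62 (-0.76 to -0.49, adjusted p = 1.41e-07). Of all genes tested, 58.2% passed in either direction between 48 and 24 h and 48% between 72 and 48 h.

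In the knockdown groups LGALS1 was 65.5, 62.3 and 64.4 TPM with the ARID2 hairpin. It was 125, 141 and 110.0 TPM in the Aiolos-labelled libraries, and 362, 356 and 375 TPM in the control knockdown. The 3 groups did not overlap, and both hairpin groups lay below the control and below untreated cells. Over all genes, 70.6% did not overlap between the ARID2 knockdown and the control, 70.6% between the Aiolos-labelled libraries and the control, and 67.7% between the ARID2 knockdown and the Aiolos-labelled libraries. As a description, the ARID2 knockdown stood at -2.49 ± 0.06 from the control, place 5 from the bottom of 12559 genes, with TPM at 0.176 of the control's. The ARID2 knockdown stood at -0.95 ± 0.06 from the libraries labelled Aiolos knockdown, also as a description.

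The control knockdown libraries were part of the comparison on which LGALS1 was chosen, so their other comparisons are also given as descriptions. The libraries labelled Aiolos knockdown stood at -1.54 ± 0.06 (SE) from the control, place 114 from the bottom. The control knockdown itself was not level with untreated cells, and LGALS1 stood 0.75 ± 0.06 higher in it. The 2 hairpin groups averaged 64.0 and 125 TPM of LGALS1, against 216 TPM in untreated cells. Virus and time in culture cannot be told apart in that setting.

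**Figure D2:**
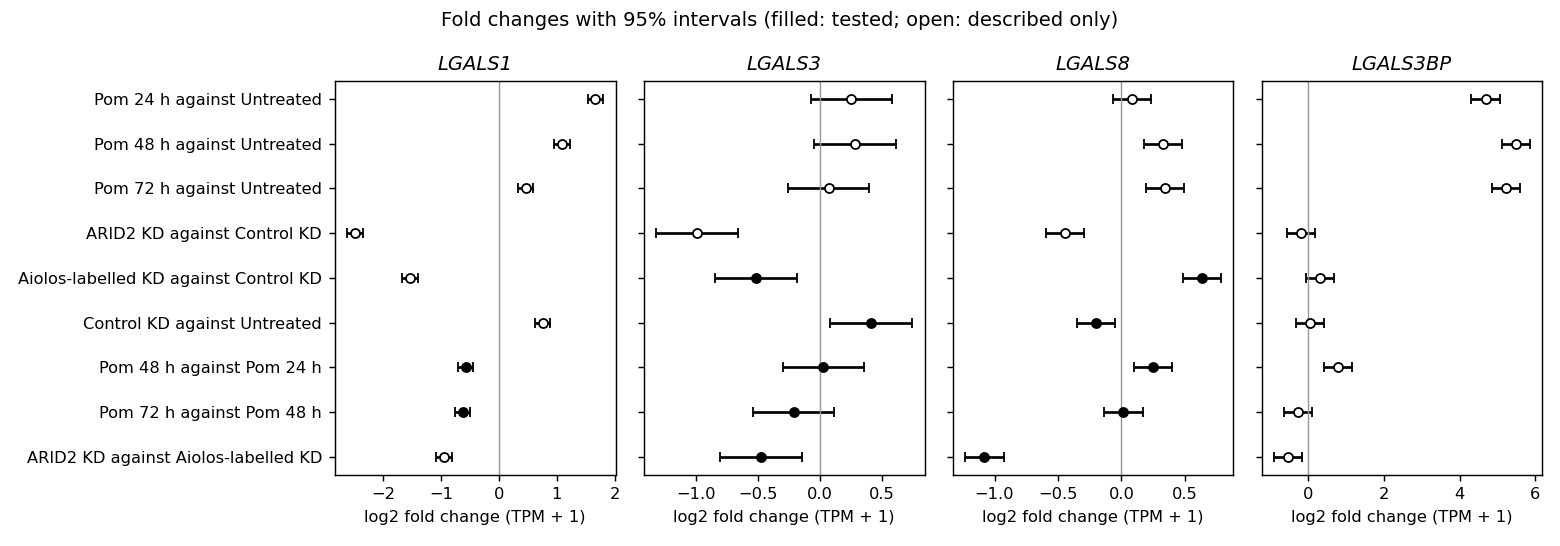
Log2 fold changes of LGALS1, LGALS3, LGALS8 and LGALS3BP on the log2(TPM + 1) scale with 95% intervals in 9 comparisons between groups of 3 libraries; filled points were tested and open points are descriptions, because the choice of genes used those libraries or, for LGALS3BP, the gene passed the filter only through the drug libraries. LGALS1 lies above 0 for pomalidomide against untreated cells and below 0 between successive drug times and for both hairpin groups against the control, while LGALS8 lies above 0 in the libraries labelled Aiolos knockdown and below 0 with the ARID2 hairpin.

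LGALS3, which encodes galectin-3, had a low transcript level in these cells. It was 7.13, 5.93 and 7.67 TPM in untreated cells, 9.33, 7.73 and 8.21 TPM at 24 h, 6.79, 9.36 and 9.93 TPM at 48 h, and 6.09, 9.49 and 6.62 TPM at 72 h. The 24 h libraries lay just above the untreated ones, and the 48 and 72 h libraries overlapped them. Of all genes, 68.6% did not overlap between 24 h and untreated cells. As a description, its log2 fold changes were 0.25 ± 0.16, 0.28 ± 0.16 and 0.07 ± 0.16 at 24, 48 and 72 h. At 72 h it was 0.08 below the median of all genes, and its direction turned to -0.072 with median-of-ratios scaling. Within the drug series it did not pass between 24 and 48 h (0.03, 95% interval -0.30 to 0.36, adjusted p = 0.891) or between 48 and 72 h (-0.21, -0.54 to 0.12, adjusted p = 0.281).

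LGALS3 was lowest with the ARID2 hairpin, at 4.91, 4.44 and 3.56 TPM. It was 6.26, 5.04 and 8.003 TPM in the Aiolos-labelled libraries and 9.68, 9.53 and 9.29 TPM in the control knockdown. The 3 groups did not overlap, and the middle one was the most spread. Over all genes, 70.6% did not overlap between each hairpin group and the control, and 67.7% between the hairpin groups. The ARID2 knockdown stood at -0.99 ± 0.16 from the control, as a description.

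In the tested comparisons LGALS3 fell in the libraries labelled Aiolos knockdown by 0.52 relative to the control (95% interval -0.85 to -0.19, adjusted p = 0.00674), in a comparison where 67.9% of all genes passed in either direction. That call was lost without replicate 2 of the labelled libraries (-0.38, adjusted p = 0.0524). LGALS3 fell in the ARID2 knockdown by 0.48 relative to the labelled libraries (-0.81 to -0.15, adjusted p = 0.0120), where 65.9% of genes passed. That call was lost without replicate 3 of the ARID2 knockdown (adjusted p = 0.0687) or of the labelled libraries (adjusted p = 0.0867). It was higher in the control knockdown than in untreated cells by 0.41 (0.09 to 0.74, adjusted p = 0.0373), where 45.7% of genes passed. That call was lost without any 1 of 5 of the 6 libraries (adjusted p from 0.0600 to 0.150), the exception being untreated replicate 3.

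LGALS8, which encodes galectin-8, the galectin known for marking damaged lysosomes and vacuoles for autophagy, took opposite sides of the control in the hairpin groups. It was 6.64, 6.43 and 6.26 TPM in the ARID2 knockdown, 13.3, 14.5 and 16.5 TPM in the Aiolos-labelled libraries, and 8.84, 9.61 and 9.02 TPM in the control knockdown. The 3 groups did not overlap. Over all genes, 70.6% did not overlap between each hairpin group and the control, and 67.7% between the hairpin groups. LGALS8 rose in the labelled libraries by 0.63 relative to the control (95% interval 0.48 to 0.78, adjusted p = 1.68e-07), where 67.9% of all genes passed. The ARID2 knockdown fell by 1.08 relative to the labelled libraries (-1.23 to -0.93, adjusted p = 6.30e-11), where 65.9% of genes passed. It stood at -0.45 ± 0.07 from the control as a description.

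LGALS8 was 11.3, 10.2 and 10.6 TPM in untreated cells, 10.6, 11.5 and 11.9 TPM at 24 h of pomalidomide, 14.4, 13.98 and 12.5 TPM at 48 h, and 13.97, 13.5 and 13.8 TPM at 72 h. The 24 h libraries overlapped the untreated ones, and the 48 and 72 h libraries lay above both. Of all genes, 79.8% did not overlap between 48 h and untreated cells, 80.4% at 72 h, and 62% between 48 and 24 h. As a description, the log2 fold changes were 0.08 ± 0.07, 0.33 ± 0.07 and 0.34 ± 0.07, the last being 0.19 above the median of all genes. Direction at 24 h turned with quantile normalization (-0.024). The step between 24 and 48 h passed (0.25, 95% interval 0.10 to 0.40, adjusted p = 0.00632), as did 58.2% of all genes. The step between 48 and 72 h did not (0.02, -0.13 to 0.17, adjusted p = 0.873) and turned to -0.064 with median-of-ratios scaling. LGALS8 was lower in the control knockdown than in untreated cells by 0.20 (-0.35 to -0.05, adjusted p = 0.0294), where 45.7% of genes passed. That call was lost without any 1 of 4 libraries (replicate 1 or 3 of either group, adjusted p from 0.0556 to 0.117).

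LGALS9, which encodes galectin-9, a ligand of the T cell receptor TIM-3, was under 1 TPM in every library and was not tested. Its values ran from 0.0543 TPM in a 72 h library to 0.790 TPM in an untreated library. Group means ran from 0.229 TPM in the control knockdown to 0.621 TPM in untreated cells. Libraries of neighbouring groups overlapped all along that order, so no order of the groups can be read.

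LGALS3BP was close to absent outside the drug groups. It was 0.596, 0.172 and 0.180 TPM in untreated cells, 32.8, 31.6 and 33.1 TPM at 24 h, 57.5, 56.9 and 57.1 TPM at 48 h, and 45.8, 52.4 and 44.3 TPM at 72 h. Every drug library was far above every untreated one. The 48 h libraries were the highest and the least spread, and the 3 drug groups did not overlap. Of all genes, 68.6%, 79.8% and 80.4% did not overlap between untreated cells and 24, 48 and 72 h. The share was 62% between 48 and 24 h and 54.8% between 72 and 48 h. LGALS3BP passed the filter on low values only through the drug libraries. The ratios of mean TPM over untreated cells were 103 at 24 h, 181 at 48 h and 150 at 72 h, and they rest on a denominator of 0.316 ± 0.242 TPM (SD, n = 3).

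On the log2(TPM + 1) scale the LGALS3BP changes were 4.69 ± 0.18 (SE), 5.48 ± 0.18 and 5.22 ± 0.18 at 24, 48 and 72 h, the last being 5.06 above the median of all genes. They took places 3, 4 and 4 from the top of 12559 genes. With a pseudocount of 0.1 they were 6.44, 7.25 and 6.98. Within the drug series LGALS3BP stood 0.79 ± 0.18 higher at 48 than at 24 h and -0.26 ± 0.18 from the 48 h level at 72 h. LGALS1 had its highest level at 24 h and LGALS3BP at 48 h. The share of LGALS3BP in the summed TPM of the 5 genes averaged 0.137% in untreated cells, 4.41% at 24 h, 10.6% at 48 h and 12.9% at 72 h.

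LGALS3BP in the knockdown groups was 0.215, 0.175 and 0.193 TPM with the ARID2 hairpin, 0.492, 0.375 and 1.42 TPM in the Aiolos-labelled libraries, and 0.0558, 0.760 and 0.362 TPM in the control knockdown. Only replicate 3 of the labelled libraries reached 1 TPM, and the control libraries overlapped both hairpin groups. Since LGALS3BP was kept for the fit by its drug libraries alone and mostly lay under 1 TPM here, no test is given between these groups.

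Among other galectin genes LGALSL was above LGALS3 and LGALS8 in mean TPM in every group. Of 12 listed, 7 were in the table and 2 passed the filter, LGALSL and LGALS14. LGALSL, a galectin-like gene, averaged 26.2 TPM at 48 h and 26.1 TPM at 72 h, against 18.7 TPM in untreated cells, and rose by 0.47 ± 0.07 and 0.46 ± 0.07 (SE; adjusted p = 4.05e-06 and 5.15e-06). It averaged 29.2 TPM in the Aiolos-labelled libraries, against 18.5 TPM in the control, and rose by 0.63 ± 0.07 (adjusted p = 9.91e-08). LGALS14, a galectin best known from placenta, fell at 48 h by 1.20 (SE 0.29, adjusted p = 0.00102) and at 72 h by 1.46 (adjusted p = 0.000147), at means under 5 TPM in every group. LGALS14 belongs to a family of close copies, so its values are uncertain.

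More of the receptors that galectins are known to bind rose than fell with the drug. Of 20 receptor genes that passed the filter, of 30 listed, 13 rose and 1 fell at 24 h, 16 rose and 4 fell at 48 h, and 15 rose and 4 fell at 72 h. Of all genes, 66.1% passed in either direction at 24 h, 78.7% at 48 h and 79.8% at 72 h. With median-of-ratios scaling the counts at 24 h were 12 up and 4 down and at 72 h 10 up and 5 down. The median of the list was 0.24, 0.48 and 0.32 (0.16 relative to all genes at 72 h), beside 0.03, 0.08 and 0.15 for all genes. ITGB1, the beta-1 integrin chain that galectins 1, 3 and 8 bind, averaged 101 TPM in untreated cells and 168, 190 and 188 TPM at 24, 48 and 72 h (0.73, 0.91 and 0.90, SE 0.05 each). CD7, a galectin-1 receptor of T cells, averaged 12.1 TPM at 72 h, against 1.52 TPM in untreated cells (2.39 ± 0.16). VPREB1, part of the pre-B cell receptor whose surrogate light chain galectin-1 binds, averaged 0.136 TPM in untreated cells and 5.83, 11.7 and 9.34 TPM at those times (2.59, 3.48 and 3.20, SE 0.20 each). TFRC, the transferrin receptor, which galectin-3 binds, fell by 0.50, 1.77 and 0.61. For ITGB1, CD7 and TFRC the adjusted p was 2.90e-09 or lower. VPREB1 passed the filter on low values only through the drug libraries, so its changes are a description, though the counts include it.

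In the ARID2 knockdown 7 of the 20 receptor genes rose, 6 fell and 7 did not pass, where 62.2% of all genes passed, and the list median was -0.02, beside 0.02 for all genes. With quantile normalization the list median was 0.00. In the libraries labelled Aiolos knockdown 11 rose, 6 fell and 3 did not pass, where 67.9% of all genes passed (median 0.23, beside 0.05 for all genes). PECAM1, an adhesion molecule also on the endothelial marker list, fell in both against the control: 3.67 TPM with the ARID2 hairpin and 2.27 TPM in the labelled libraries, against 17.9 TPM in the control (-2.02 ± 0.11 and -2.53 ± 0.11; adjusted p = 4.39e-12 and 7.35e-14). PECAM1 was itself higher in the control knockdown than in untreated cells, which averaged 4.88 TPM (1.68 ± 0.11, adjusted p = 4.00e-10). CEACAM1, a TIM-3 partner, reached 7.34 TPM in the labelled libraries, against 0.309 TPM in the control (2.67 ± 0.11, adjusted p = 3.24e-14).

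Enzymes that build galectin-binding glycans changed in both directions. Of 22 branching and N-acetyllactosamine genes that passed the filter, 6 rose and 9 fell at 24 h, 7 rose and 12 fell at 48 h, and 7 rose and 11 fell at 72 h, beside 66.1%, 78.7% and 79.8% of all genes called in either direction. List medians were 0.00, -0.17 and -0.10, the last being -0.25 relative to all genes, and with median-of-ratios scaling 5 rose and 14 fell at 72 h. B4GALT2, a galactosyltransferase that makes N-acetyllactosamine, averaged 49.7 TPM in untreated cells and 26.4, 13.5 and 13.7 TPM at the 3 drug times (-0.89, -1.80 and -1.79, SE 0.07 each). Its paralogue B4GALT1 was higher at 24 and 48 h (0.42 ± 0.03 and 0.38 ± 0.03), at 101 and 98.4 TPM against 75.4 TPM in untreated cells. At 72 h B4GALT1 averaged 69.8 TPM and fell by 0.11 (SE 0.03, adjusted p = 0.00487). MAN2A1, a Golgi mannosidase that opens the way to branched N-glycans, averaged 381 TPM at 48 h and 378 TPM at 72 h, against 217 TPM in untreated cells (0.81 ± 0.06 and 0.80 ± 0.06). MGAT5, which starts the branch that galectins favour, rose by 0.43 ± 0.04 at 48 h. For these glycan genes, apart from B4GALT1 at 72 h, the adjusted p was 1.62e-09 or lower.

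MAN2A1 and MGAT5 were read in the hairpin groups too. MAN2A1 averaged 144 TPM with the ARID2 hairpin and 430 TPM in the Aiolos-labelled libraries, against 227 TPM in the control (-0.65 ± 0.06 and 0.92 ± 0.06; adjusted p = 3.36e-09 and 1.15e-11). MGAT5 averaged 125 TPM with the ARID2 hairpin and 245 TPM in the labelled libraries, against 149 TPM in the control (-0.25 ± 0.04 and 0.71 ± 0.04; adjusted p = 1.02e-05 and 1.29e-12). The signs of MAN2A1 and MGAT5 in both hairpin groups were those of LGALS8, while B4GALT1 went the other way. B4GALT1 averaged 84.9 TPM with the ARID2 hairpin and 47.7 TPM in the labelled libraries, against 73.3 TPM in the control. How many of the 22 genes share either pattern was not counted. Among the 22 genes 5 rose and 10 fell with the ARID2 hairpin (median -0.16), and 9 rose and 8 fell in the labelled libraries (median 0.08), beside 62.2% and 67.9% of all genes called. UAP1, which makes UDP-N-acetylglucosamine, fell with the ARID2 hairpin by 0.64 (SE 0.05, adjusted p = 1.63e-09). MGAT3, of the same list, rose with that hairpin by 0.64 (SE 0.05, adjusted p = 8.18e-10).

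Some sialyltransferases cap the galactose that galectins read. Sialyltransferase genes of several kinds were listed with genes of sialic acid synthesis, transport and removal. Of these 15 genes, 6 rose and 4 fell at 24 h, 8 rose and 5 fell at 48 h, and 9 rose and 4 fell at 72 h, beside 66.1%, 78.7% and 79.8% of all genes called in either direction. With median-of-ratios scaling 6 rose and 6 fell at 24 h. Medians were 0.04, 0.19 and 0.42, the last being 0.27 relative to all genes, and the first turned to -0.01 with median-of-ratios scaling. ST6GALNAC6 averaged 43.2 TPM at 72 h, against 11.8 TPM in untreated cells (1.80 ± 0.08, adjusted p = 4.27e-14). ST3GAL6 averaged 108 TPM in untreated cells and 165, 264 and 236 TPM at the 3 drug times (0.61, 1.29 and 1.13, SE 0.04 each; adjusted p at most 1.25e-10). ST6GAL1, whose alpha-2,6 cap blocks galectin-1 binding, averaged 380 TPM at 48 h, against 288 TPM in untreated cells (0.40 ± 0.03, adjusted p = 3.92e-11). In both hairpin groups 6 rose, 6 fell and 3 did not pass, with medians of 0.08 each, beside 62.2% of all genes called with the ARID2 hairpin and 67.9% in the Aiolos-labelled libraries. NANS, which makes sialic acid, fell in both (-0.60 ± 0.04 with the ARID2 hairpin and -1.02 ± 0.04 in the labelled libraries; adjusted p = 3.45e-10 and 6.16e-14).

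**Figure D3:**
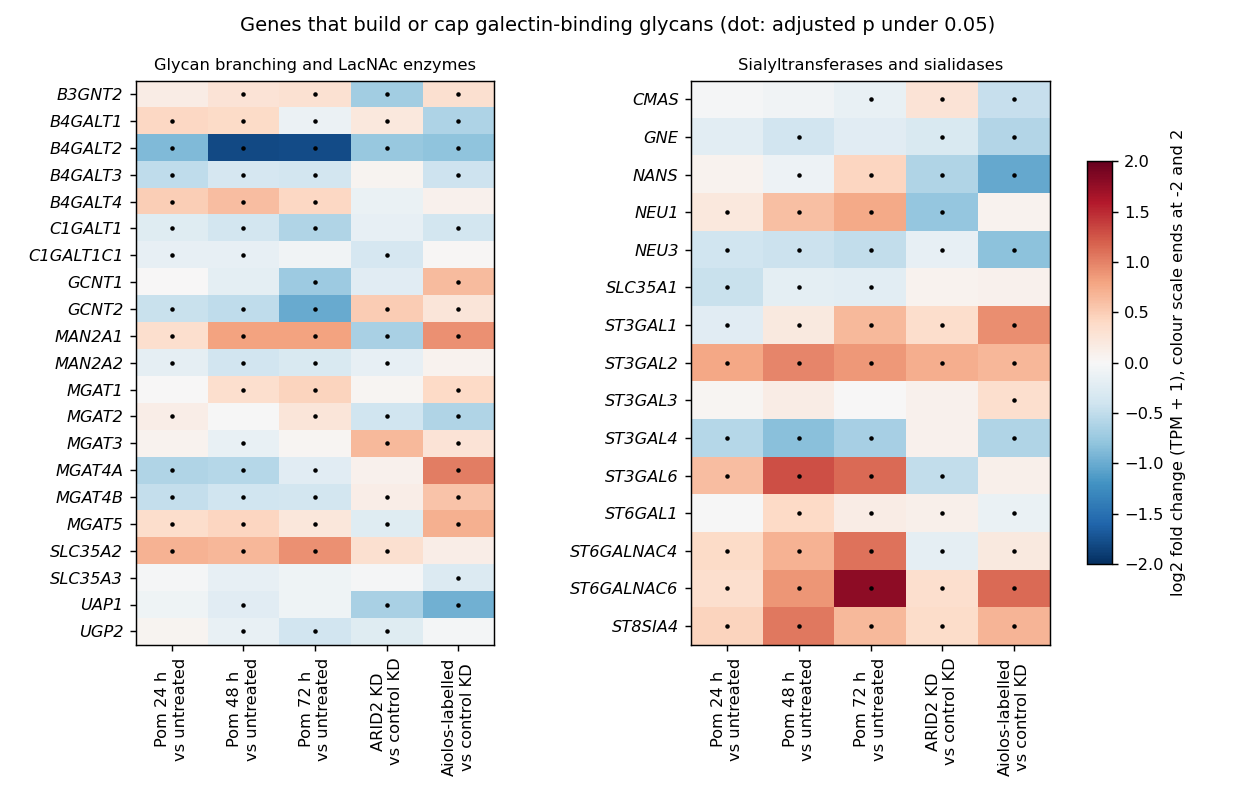
Log2 fold changes on the log2(TPM + 1) scale of genes that build galectin-binding glycans (left, with 1 of the 22 not drawn) and of genes of sialic acid transfer and removal (right) in 5 comparisons with untreated or control knockdown cells; colour gives the fold change and a dot marks an adjusted p under 0.05 in limma. B4GALT2 is the darkest blue cell at 48 and 72 h and ST6GALNAC6 the darkest red at 72 h.

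Genes that answer lysosome damage together with galectins 3, 8 and 9 were mostly higher with the drug. Of 22 such genes, 13 rose and 4 fell at 24 h, 16 rose and 4 fell at 48 h, and 17 rose and 3 fell at 72 h, beside 66.1%, 78.7% and 79.8% of all genes called in either direction. Medians were 0.23, 0.38 and 0.55, beside 0.03, 0.08 and 0.15 for all genes. NBR1, an autophagy receptor, averaged 46.9 TPM in untreated cells and 75.0, 113 and 104 TPM at the 3 drug times (0.66, 1.26 and 1.13, SE 0.04 each). OPTN, another such receptor, rose by 0.66, 1.22 and 0.97 (SE 0.04 each), and the kinase ULK1, which starts autophagy, rose by 1.47 ± 0.07 at 72 h. Their adjusted p was 6.98e-11 or lower. With the ARID2 hairpin 11 rose and 4 fell (median 0.17), and in the libraries labelled Aiolos knockdown 15 rose and 5 fell (median 0.26), beside 62.2% and 67.9% of all genes called. RRAGD, a GTPase that ties mTORC1 to lysosomes, took opposite sides as LGALS8 did, with 44.1 TPM with the ARID2 hairpin and 108 TPM in the labelled libraries, against 71.2 TPM in the control (-0.68 ± 0.06 and 0.60 ± 0.06; adjusted p = 1.78e-09 and 9.02e-09).

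The SRCR domain of LGALS3BP is shared with scavenger receptors and lysyl oxidase-like enzymes, most of which were low here. Of 18 such genes listed, 7 passed the filter; 4 rose and 1 fell at 24 h, 5 rose and 1 fell at 48 h, and 6 rose at 72 h, beside 66.1%, 78.7% and 79.8% of all genes called in either direction. With quantile normalization the counts were 3 up and 2 down at 24 h, 5 up and 2 down at 48 h, and 4 up at 72 h. LOXL4, an enzyme that crosslinks collagen, averaged 2.87 TPM in untreated cells and 20.4, 30.7 and 26.8 TPM at the 3 drug times (2.47, 3.03 and 2.84, SE 0.11 each; adjusted p at most 2.88e-13). LOXL4 and LGALS3BP both had their highest mean at 48 h. With the ARID2 hairpin 1 of the 7 genes rose and 2 fell, and in the Aiolos-labelled libraries 1 rose and 1 fell. Of all genes, 62.2% and 67.9% were called in those comparisons with the control.

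Interferon-stimulated genes were set beside LGALS3BP because it is known as one. Of 22 core genes that passed the filter, 14 rose and 3 fell at 24 h, 14 rose and 2 fell at 48 h, and 13 rose and 7 fell at 72 h, beside 66.1%, 78.7% and 79.8% of all genes called in either direction. Medians were 0.55, 0.83 and 0.41, beside 0.03, 0.08 and 0.15 for all genes. STAT2, a transcription factor of the type I interferon response, averaged 93.6 TPM in untreated cells and 169, 304 and 272 TPM at the 3 drug times (0.84, 1.69 and 1.53, SE 0.03 each). STAT2, like LGALS3BP, was highest at 48 h, whereas IFIT3 was highest at 24 h (16.6 TPM, against 1.66 TPM in untreated cells; 2.73 ± 0.08) and IFI6 at 72 h (81.5 TPM, against 23.6 TPM; 1.75 ± 0.07). Each had an adjusted p of 8.30e-15 or lower. GBP1 changed sides, with 1.47 ± 0.07 at 24 h and -1.22 ± 0.07 at 72 h (adjusted p = 3.40e-13 and 1.84e-12).

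**Figure D4:**
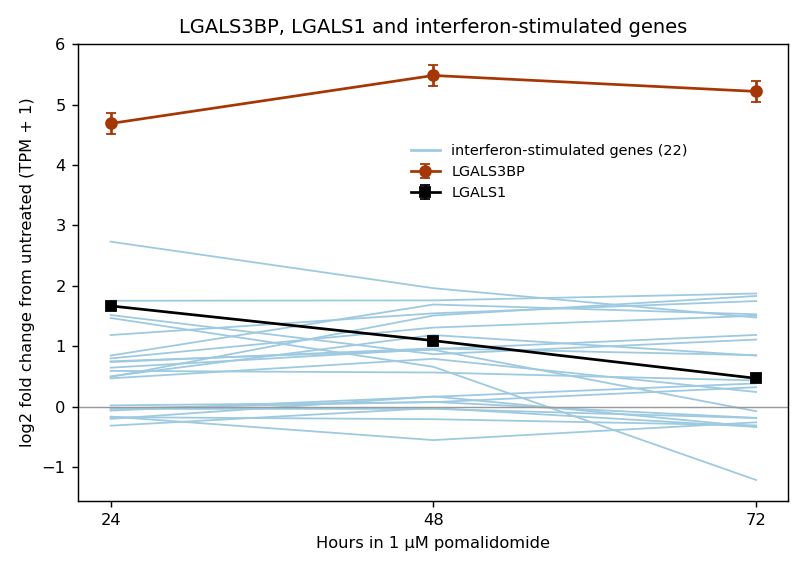
Log2 fold change from untreated cells on the log2(TPM + 1) scale at 24, 48 and 72 h of 1 µM pomalidomide for LGALS3BP (circles) and LGALS1 (squares), with SE bars, and for each of 22 interferon-stimulated genes (thin lines); n = 3 libraries per group. LGALS3BP, chosen for its rise, lies between 4.69 and 5.48, the highest interferon-stimulated gene plotted is IFIT3 at 2.73, and LGALS1 declines to 0.47.

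Interferon-stimulated genes were also read in the hairpin groups, where LGALS3BP stayed under 1 TPM in all but 1 library. In the libraries labelled Aiolos knockdown 10 of the 22 rose, 5 fell and 7 did not pass (median 0.06), beside 67.9% of all genes called and a median of 0.05 for all genes, and with median-of-ratios scaling 9 rose and 7 fell. IFIT3 averaged 17.5 TPM there, against 3.17 TPM in the control (2.15 ± 0.08), close to its mean of 16.6 TPM at 24 h of drug. IFI6 averaged 101 TPM, against 35.5 TPM (1.49 ± 0.07), and IFI44 averaged 7.15 TPM, against 0.448 TPM (2.49 ± 0.13). Among those that fell, OAS3 averaged 3.03 TPM, against 8.75 TPM (-1.26 ± 0.09), and IFIT1 averaged 1.26 TPM, against 4.19 TPM (-1.19 ± 0.15). The control itself was not level with untreated cells, where OAS3 averaged 2.97 TPM and IFIT1 1.81 TPM. Of the 22 genes, 9 rose and 9 fell in the control knockdown against untreated cells, where 45.7% of all genes passed. LGALS3BP in the Aiolos-labelled libraries averaged 0.761 ± 0.570 TPM (SD, n = 3). With the ARID2 hairpin 13 rose, 3 fell and 6 did not pass (median 0.27). Beside these, 62.2% of all genes were called, with a median of 0.02. TAP1 (0.94 ± 0.04) and IRF7 (0.93 ± 0.10) were among those that rose. IFI44 rose by 1.39 ± 0.13, at 2.78 TPM against 0.448 TPM, and IFIT1 fell by 1.14 ± 0.15, at 1.36 TPM against 4.19 TPM. LGALS3BP averaged 0.194 ± 0.0204 TPM. Adjusted p-values of the interferon genes named were at most 2.08e-06.

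The genes whose pattern was most like each gene's were found by Pearson r of the 7 group means of log2(TPM + 1) among 10552 genes. The 7 points share their libraries with the comparisons above, and r is given as a description. For LGALS3BP they were PCDH12 (r = 0.997), VPREB1 (0.997), TRAF3IP3 (0.996), RAMP1 (0.996) and LAMB3 (0.996). With 7 groups of which 3 are high, many genes raised by the drug can score near 1. For LGALS1 they were ZNF417 (r = 0.977), TMEM205 (0.972), SEMA4C (0.968), SULT1A4 (0.966), which has a near-identical copy, and CAP1 (0.963). Over the 21 libraries CAP1 came first for LGALS1 (r = 0.951), and ZNF417 took place 225. For LGALS3 they were DYRK4 (0.972), STOM, FUOM, UBE2L6 and TMED9, and for LGALS8 SLC35C1 (0.990), SLC45A4, HELZ, CDC37L1 and TNK2.

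The genes on either side of each member were read for comparison. CEP295NL and CANT1, on either side of LGALS3BP, averaged 4.80 and 79.5 TPM at 48 h, against 1.69 and 60.1 TPM in untreated cells, where the ratio of LGALS3BP was 181. PDXP and NOL12, on either side of LGALS1, averaged 47.1 and 27.9 TPM with the ARID2 hairpin, against 55.5 and 23.8 TPM in the control. DLGAP5, beside LGALS3, is a mitotic gene that averaged 3.17 TPM at 72 h, against 62.4 TPM in untreated cells. HEATR1, which overlaps LGALS8 on the other strand, averaged 32.5 TPM with the ARID2 hairpin and 35.0 TPM in the Aiolos-labelled libraries, against 39.6 TPM in the control.

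Markers of other cell types were read because LGALS1, LGALS3 and LGALS3BP are also made by macrophages and stroma. All libraries were of the MM.1S line, and in bulk RNA fewer cells of a type and less RNA per cell cannot be told apart. The summed level of 10 myeloid markers was 4.82 to 8.76 TPM in untreated cells, 46.4 to 57.1 TPM at 24 h, 74.0 to 81.0 TPM at 48 h and 57.0 to 61.0 TPM at 72 h, and so moved with LGALS3BP. Most of it was CD68, a lysosomal protein, at 4.74 TPM in untreated cells and 42.9, 66.8 and 49.8 TPM at the 3 drug times. Of the 10, LYZ, CSF1R, FCGR3A, S100A8 and FCN1 were under 1 TPM in every library. The same sum was 15.4 to 16.7 TPM with the ARID2 hairpin and 21.96 to 26.6 TPM in the Aiolos-labelled libraries, against 6.82 to 10.0 TPM in the control, where LGALS1 went the other way. Stromal, endothelial and epithelial markers summed to 46.7 to 48.4 TPM in untreated cells, 30.8 to 34.1 TPM at 24 h, 16.3 to 21.7 TPM at 48 h and 11.9 to 12.3 TPM at 72 h. They summed to 53.2 to 54.5 TPM and to 16.7 to 22.2 TPM in those hairpin groups, against 59.6 to 67.6 TPM in the control. Most of that sum was VIM, at 39.9 TPM in untreated cells and 25.7, 15.6 and 10.5 TPM at the 3 drug times. COL1A2, COL3A1, DCN, PDGFRB, VWF, KRT8, KRT18 and KRT19 were under 1 TPM in every library. T and NK markers summed to at most 10.3 TPM in any library, and B cell markers to between 60.1 and 136 TPM. The part of these marker sums in the results was not tested.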

How the data were processed

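RNA of 21 MM.1S libraries, 3 in each of 7 groups, was analysed from 1 table that the authors deposited in TPM, with 17691 gene symbols. The genome build was hg38, per the submitters' processing notes; no aligner, quantifier or annotation is stated in the sources used here. TPM keeps no record of depth, so no counting intervals are given, and a TPM can fall because other genes rose.

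The scale was log2(TPM + 1). A gene was kept where 3 libraries or more reached 1 TPM, which left 12559. The 7 group means were fitted in limma 3.58.1 (R 4.3.3) with a mean trend, two-sided tests and Benjamini-Hochberg adjustment over all kept genes. The fit was tested on simulated data. No test is given for LGALS3BP or VPREB1, or for LGALS1 in comparisons with the ARID2 or control knockdown or with untreated cells. Nor is one given for LGALS3 or LGALS8 for drug against untreated cells or for the ARID2 knockdown against the control. Some of these tests were planned, but the choice or the filter used those libraries.

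The members and lists were chosen with earlier results of these data known. Genes named from a list are up to 4 with the smallest p. They are taken among genes that passed with a mean of at least 5 TPM in the higher group. The 5 members are named everywhere. Further genes were chosen after their values were seen: LGALS14, HEATR1 as overlap, CD68 as the leading marker, OAS3 and IFIT1. So were values of an already named gene in other groups. Of the glycan-building genes 1 is counted but not reported here by name. Positions come from GENCODE 29. Alternatives covered the pseudocount, filter, scaling, groups fitted, replicate number as a block, and leaving out each library.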

Additional observations from a re-analysis of the deposited data

How the results depend on the processing

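A pseudocount of 0.1 raised the LGALS3BP changes against untreated cells to 6.44, 7.25 and 6.98 at 24, 48 and 72 h. LGALS3 in the control knockdown against untreated cells no longer passed without a filter (0.41, adjusted p = 0.0695) or with quantile normalization (0.40, adjusted p = 0.0540). Direction turned for LGALS8 between 48 and 72 h with median-of-ratios scaling (-0.064) and for LGALS8 at 24 h against untreated cells with quantile normalization (-0.024). For each, the cause was not tested. The counts of genes that passed in each comparison stayed within 1.5 times under every alternative.

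Leaving out 1 library at a time gave these ranges of log2 fold change. In the control knockdown against untreated cells LGALS3 ran from 0.32 to 0.48 and LGALS8 from -0.23 to -0.16. In the Aiolos-labelled libraries against the control LGALS3 ran from -0.66 to -0.38. In the ARID2 knockdown against the Aiolos-labelled libraries LGALS3 ran from -0.62 to -0.33. At 72 h against untreated cells LGALS3 ran from -0.10 to 0.18, and it was -0.065 with quantile normalization. Between 24 and 48 h LGALS3 ran from -0.066 to 0.18, and between 48 and 72 h LGALS8 ran from -0.041 to 0.054.

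Replicate numbers are shared between groups and were checked. Deviations from group means correlated between -0.125 and 0.110 for libraries of the same number (63 pairs) and between -0.178 and 0.170 for others (126 pairs), so the numbers do not pair the libraries. With a replicate block no call on LGALS1, LGALS3 or LGALS8 changed, and LGALS3 in the control knockdown against untreated cells kept 0.41 (adjusted p = 0.0490). The scaling of the gene lists was an alternative chosen after seeing the data. TPM gives no depth, so values under 1 TPM, those of LGALS9 and of LGALS3BP outside the drug groups, cannot be given a counting error.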
